A study of Homo sapiens with 15 samples.

Results

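Cells from plate 1 were compared with cells from plates 2 and 3 of DiFi, a human colorectal cancer line long in use, by small RNA sequencing. Each library was assigned by its label, which gives an HF number (HF6 or HF7) and a plate number. Plate 1 comprised 2 libraries, HF6 plate 1 and HF7 plate 1. Plates 2 and 3 together comprised 4 libraries, 1 of each plate number for HF6 and for HF7. These 6 are part of 14 libraries with values, the others being 2 cell pellets, 2 filtered and 2 unfiltered HDM samples and a pair of media libraries (HDM media, regular media). The series set out to try ways of growing colorectal cancer cells for collecting the RNA carriers they secrete. The labels give DiFi for every sample, name no treatment, time or genotype for any plate, and spell out neither HF nor HDM. What was done differently between plate numbers is therefore not known, and the comparison shows only that the libraries differ by plate number. The labels' single extraction text speaks of extracellular samples for all libraries, including those titled as cells. They also do not say whether HF6 and HF7 are separate cultures, so the p-values rest on nothing but the spread among the 6 libraries. The fit shares that spread across miRNAs.

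MicroRNAs (miRNAs) are short RNAs cut from hairpin precursors, whose left and right arms give a 5p and a 3p product. A miRNA is loaded into an Argonaute protein and recognises messenger RNAs mainly through its seed, so miRNAs that share a seed share many targets. Many miRNA genes lie close together and are transcribed as 1 precursor, while near-identical copies may lie on other chromosomes under other promoters. Colorectal epithelium is known for miR-194, miR-192 and their relative miR-215, and for the miR-200 family, which holds cells in an epithelial state.

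Plate 1 libraries held 3771619 (HF6) and 2664161 (HF7) counts. The libraries of plates 2 and 3 held between 1246503 (HF6 plate 3) and 4184909 counts (HF6 plate 2). Of 1619 miRNA entries, 534 passed the low-count filter and hold 99.96% of the counts, while 166 had no count in any of the 6. Levels are CPM (counts scaled to a common library size with TMM), which rests on the assumption that most miRNAs do not differ. miR-21-5p was the most abundant in every library, and the epithelial miR-200b-3p, miR-194-5p and miR-192-5p followed it in the mean over the 6, as the labelled cell type would have it. Across the 177 miRNAs averaging 100 CPM or more, log2 CPM correlated at 0.925 to 0.940 between libraries of different groups, at 0.984 to 0.992 within plates 2 and 3 and at 0.995 within plate 1, with miRNAs that are not independent of one another.

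The mature sequences below are those of the miRNAs on which the results turn, as the deposited table gives them in DNA letters, with the seed (bases 2 to 8) in capitals. Of 93 named miRNAs, 88 have an identical mature entry in RefSeq (GRCh38.p14). The first set holds the abundant miRNA with the largest decrease, followed by 6 of those that were higher in plate 1.
miR-592: tTGTGTCAatatgcgatgatgt
miR-146a-5p: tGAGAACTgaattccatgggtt
miR-146b-5p: tGAGAACTgaattccataggctg
miR-375-3p: tTTGTTCGttcggctcgcgtga
miR-135b-5p: tATGGCTTttcattcctatgtga
miR-210-3p: cTGTGCGTgtgacagcggctga
miR-1246: aATGGATTtttggagcagg
The second set pairs miRNAs that share a seed and come from different loci, since the members of these pairs moved by different amounts or in opposite directions.
miR-27a-3p: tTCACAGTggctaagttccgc
miR-27b-3p: tTCACAGTggctaagttctgc
miR-200c-3p: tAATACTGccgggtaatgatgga
miR-200b-3p: tAATACTGcctggtaatgatga
miR-141-3p: tAACACTGtctggtaaagatgg
miR-200a-3p: tAACACTGtctggtaacgatgt
miR-29c-3p: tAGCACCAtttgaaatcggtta
miR-29a-3p: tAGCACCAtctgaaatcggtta
miR-125a-5p: tCCCTGAGaccctttaacctgtga
miR-125b-5p: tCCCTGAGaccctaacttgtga
miR-215-5p: aTGACCTAtgaattgacagac
miR-192-5p: cTGACCTAtgaattgacagcc
The third set comes from the cluster in CLCN5 and shows how alike its 3p products are.
miR-500a-3p: aTGCACCTgggcaaggattctg
miR-501-3p: aATGCACCcgggcaaggattct
miR-502-3p: aATGCACCtgggcaaggattca
miR-500a-5p: tAATCCTTgctacctgggtgaga
miR-501-5p: aATCCTTTgtccctgggtgaga

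Plate 1 differed from plates 2 and 3 in many miRNAs and in both directions. At an adjusted p under 0.05 in edgeR's quasi-likelihood test with Benjamini-Hochberg adjustment over all 534, 181 miRNAs were called (33.9%). Of these, 96 were higher in plate 1 (18%) and 85 were lower (15.9%). Every count of called members of a family, cluster or list below is to be read beside these shares. The plate 1 libraries lay outside the range of plates 2 and 3 for 178 of the 181, and for 262 of all 534 (49.1%). A change of at least 2-fold was reached by 57 of the higher and 48 of the lower miRNAs, and one of at least 4-fold by 14 and 11. When libraries were scaled by total counts only, the median log2 fold of all 534 moved to -0.25, against -0.05 with TMM, and the split became 67 higher and 116 lower of 183 called. The number of calls leans on the plate 1 libraries, of which there are only 2: it was 97 without HF6 plate 1 and 103 without HF7 plate 1.

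**Figure D1:**
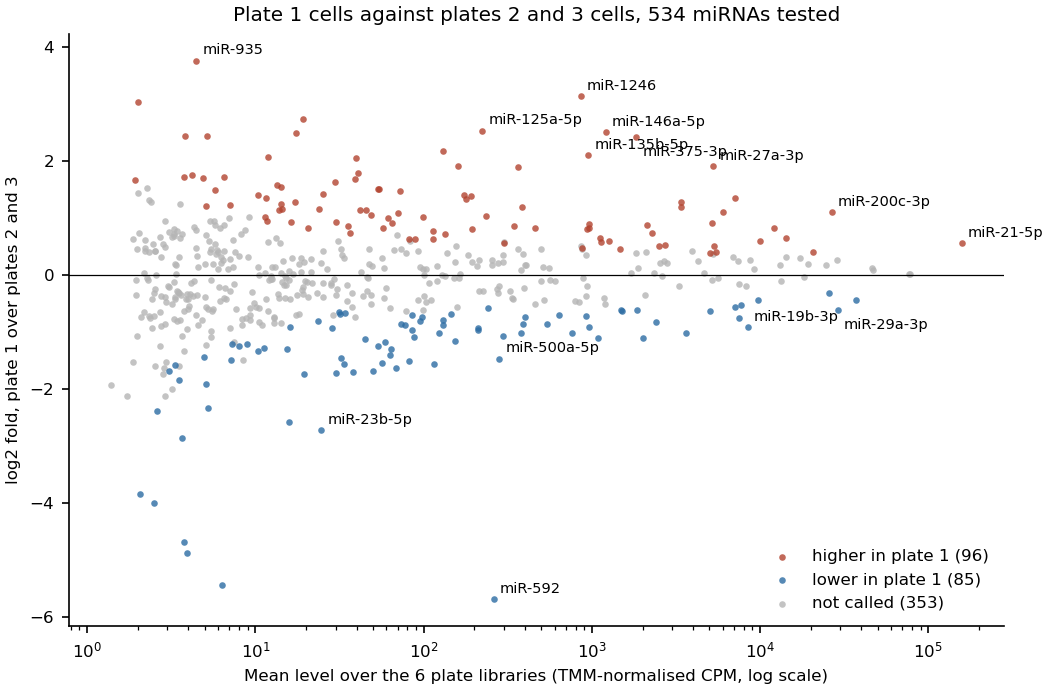
The log2 fold of plate 1 over plates 2 and 3 (vertical axis) is plotted against the mean CPM of the 6 plate libraries on a log scale (horizontal axis), with 1 point per miRNA for 534 miRNAs. The 96 called higher and 85 called lower are coloured and span the whole range of levels, and miR-592 stands far below all miRNAs of similar level.

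HF6 and HF7 each hold a plate 1 and a pair of plates 2 and 3, and the 2 differences share no library. Over the 177 miRNAs of at least 100 CPM, the differences correlated at 0.920, and over all 534 at 0.770, across miRNAs. The sign was the same for 416 of the 534 (77.9%). In HF6, plate 1 was at least 2-fold above the mean of plates 2 and 3 for 70 miRNAs and at least 2-fold below for 65. In HF7 it was so for 67 (12.5% of all tested) and 69 (12.9%). Of the 70 and the 65 of HF6, 43 and 37 were also at least 2-fold changed in the same direction in HF7, and 0 in the opposite direction. A test of the difference between HF6 and HF7 in the plate 1 effect (edgeR, interaction term) called 0 of 534 miRNAs, while 8 had an unadjusted p under 0.05. Without HF7 plate 2, the plate 1 effect of miR-210-3p was lower in HF7 than in HF6 by 2.04 on the log2 scale. That fit sets HF7 plate 1 against plate 3 alone, but HF6 plate 1 against plates 2 and 3. For miR-210-3p plate 3 lay above plate 2, so HF number and plate number cannot be told apart there. With all 6 libraries the difference of HF7 from HF6 was -1.39 and was not called.

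**Figure D2:**
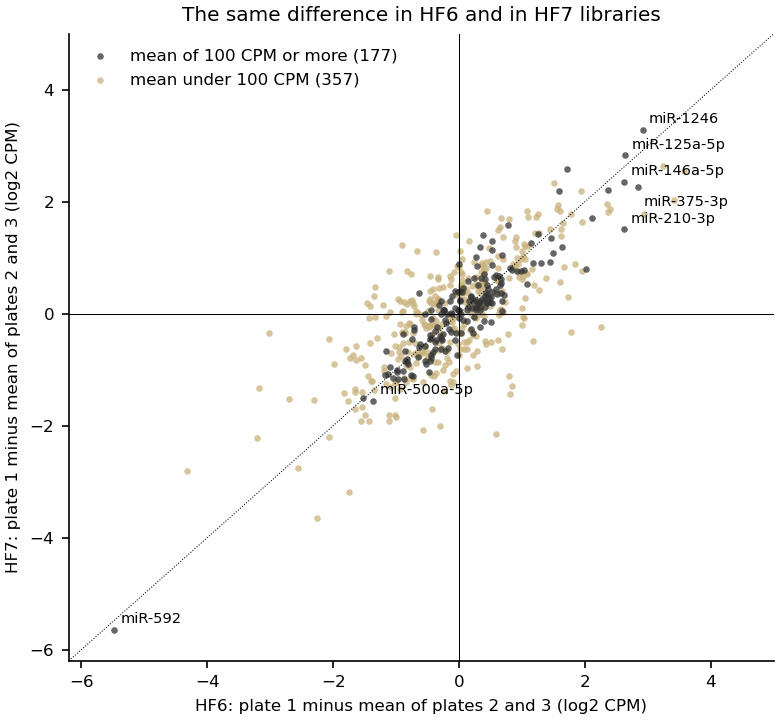
For each of 534 miRNAs the log2 CPM of plate 1 minus the mean of plates 2 and 3 is plotted, for HF6 on the horizontal and HF7 on the vertical axis, with equal values on the dotted line. The 177 more abundant miRNAs (dark) lie along that line, and miR-592 is the lowest in both.

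The largest decrease of an abundant miRNA was that of miR-592, which lies at chr7:127058148-127058169 (GRCh38, minus strand), within an intron of GRM8, a glutamate receptor gene, on the same strand. Below, plate 1 values are given as HF6 then HF7, and those of plates 2 and 3 as HF6 plate 2, HF6 plate 3, HF7 plate 2 and HF7 plate 3. miR-592 had 7.15 and 7.97 CPM in plate 1, from 25 and 19 counts, against 320, 373, 428 and 429 CPM in plates 2 and 3. The groups were thus 51.3-fold apart, with a log2 fold of -5.68 ± 0.29 (SE, adjusted p = 1.82e-09). The drop was alike when plate 1 was set against plate 2 alone (log2 fold -5.63) or plate 3 alone (-5.73). No other miRNA that averaged 100 CPM or more in either group had a log2 fold below -1.56, the value of miR-501-5p.

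The miRNAs of the CLCN5 cluster fell together in plate 1. This cluster (chrX:50003167-50014670, plus strand, GRCh38) lies in an intron of CLCN5, a chloride channel gene, and holds miR-532, miR-188, miR-500a, miR-362, miR-501, miR-660, miR-502 and miR-500b. All 14 of the 14 listed products were called lower, against 15.9% of all tested. In each the plate 1 libraries lay below all 4 libraries of plates 2 and 3. The groups do not overlap for 178 of the 181 called miRNAs and 262 of all 534, so this adds little to the calls. Their median log2 fold was -1.05, against -0.05 for all tested, and they ranged from -1.74 for miR-660-3p to -0.71 for miR-532-3p.

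miR-500a-5p had 136 and 122 CPM in plate 1, against 361, 340, 415 and 313 CPM in plates 2 and 3 (log2 fold -1.47 ± 0.21, adjusted p = 0.000109). miR-501-5p had 48.9 and 52.4 CPM in plate 1, against 153, 133, 192 and 116 CPM in plates 2 and 3 (log2 fold -1.56). miR-660-5p had 426 and 478 CPM in plate 1, against 771, 930, 1016 and 962 CPM in plates 2 and 3 (log2 fold -1.03). In all 3 the plate 1 libraries are close to each other and clear of the rest. The 3p products miR-500a-3p, miR-501-3p and miR-502-3p fell by 1.07, 1.16 and 1.02 on the log2 scale, but miR-500a-3p differs from each of the others by at most 1 mismatch when aligned, so reads could pass between them in counting. Of the most abundant members, miR-362-5p had a log2 fold of -0.92 and miR-532-5p of -0.72. The other 2 products of the locus that passed the filter were not called: miR-188-3p and miR-500b-3p, with log2 folds of -0.63 ± 0.47 and 0.65 ± 0.56 at under 10 CPM. The count of 14 was 11 without HF6 plate 1, 11 without HF7 plate 1, and 8 when a fold of at least 1.5 was tested.

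The miR-17-92 cluster (chr13:91350618-91351382, plus strand), a set of miRNAs that drive proliferation and are induced by MYC, was lower in plate 1 as well. Of its 11 tested products 7 were called lower, against 15.9% of all tested, and all 11 had a negative log2 fold, with a median of -0.56. Of the 7, miR-19b-3p and miR-92a-3p are also made from a paralogous cluster on chromosome X and cannot be assigned to one. miR-19b-3p had 5797 and 4779 CPM in plate 1, against 9357, 9860, 10746 and 10002 CPM in plates 2 and 3 (log2 fold -0.92 ± 0.14, adjusted p = 0.000127). miR-18a-5p had 1049 and 1211 CPM in plate 1, against 2373, 2198, 3105 and 2100 CPM in plates 2 and 3 (log2 fold -1.11 ± 0.19, adjusted p = 0.000375). The groups do not overlap in either. The most abundant member, miR-92a-3p, changed least among those called: 21643 and 22748 CPM in plate 1, against 25063, 26484, 29223 and 29265 CPM in plates 2 and 3 (log2 fold -0.31). That call was lost with DESeq2 (adjusted p = 0.155) and without either plate 1 library (adjusted p = 0.0863 without HF6, 0.137 without HF7). Together with the paralogous clusters, 20 of 22 listed products were tested, 0 were higher and 9 lower, with a median of -0.37. Without HF7 plate 1 the 9 became 3. In the paralogous miR-106b, miR-93 and miR-25 cluster on chromosome 7, miR-106b-5p was called lower (-0.63), while miR-93-5p (-0.20) and miR-25-3p (0.24) were not called.

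The cluster of miR-23a, miR-27a and miR-24-2 (chr19:13836289-13836651, minus strand) rose in plate 1, and its near-copy on chromosome 9 did not rise with it. These miRNAs regulate the cell cycle and lipid metabolism. Of 6 tested products of the chromosome 19 locus, 5 were called higher, against 18% of all tested, with a median log2 fold of 1.08. miR-27a-3p had 8578 and 11989 CPM in plate 1, against 2819, 2867, 2421 and 2833 CPM in plates 2 and 3 (log2 fold 1.91 ± 0.15, adjusted p = 2.52e-07). miR-23a-3p had 11325 and 12531 CPM in plate 1, against 4625, 4832, 4497 and 4879 CPM in plates 2 and 3 (log2 fold 1.34 ± 0.12, adjusted p = 1.27e-06). Both are far outside the range of plates 2 and 3. From the chromosome 9 locus, miR-27b-3p had 8712 and 10746 CPM in plate 1, against 9625, 9213, 8110 and 9122 CPM in plates 2 and 3 (log2 fold 0.11, adjusted p = 0.554). miR-23b-3p had a log2 fold of -0.06 and was not called either, and miR-23b-5p fell to 6.29 and 3.77 CPM in plate 1, against 39.0, 41.2, 29.7 and 28.3 CPM in plates 2 and 3. miR-24-3p (log2 fold 0.83) is made from both loci and cannot be assigned to one.

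The ratio of 2 miRNAs within a library does not depend on the scaling. The ratio of miR-27a-3p to miR-27b-3p was 0.985 and 1.12 in plate 1, against 0.293, 0.311, 0.299 and 0.311 in plates 2 and 3, a 3.46-fold difference. That of miR-23a-3p to miR-23b-3p was 2.07 and 2.28 in plate 1, against 0.833, 0.762, 0.882 and 0.826 in plates 2 and 3. So in plate 1 the chromosome 19 copies were about as abundant as, or more abundant than, their chromosome 9 relatives, and in plates 2 and 3 less. The members of each pair differ by at most 1 mismatch, so the ratios rest on reads being told apart at 1 base. Ratios were formed for 10 pairs that share a seed, and the groups do not overlap in any of the 10. The pairs were chosen with earlier results known, so this count is no separate support. No ratios were formed for other miRNAs that share a seed. The exact two-sided permutation p of each, taken by doubling the smaller tail, was 0.133. That is the smallest that this rule can give for 2 against 4 libraries, so it cannot reach 0.05.

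**Figure D3:**
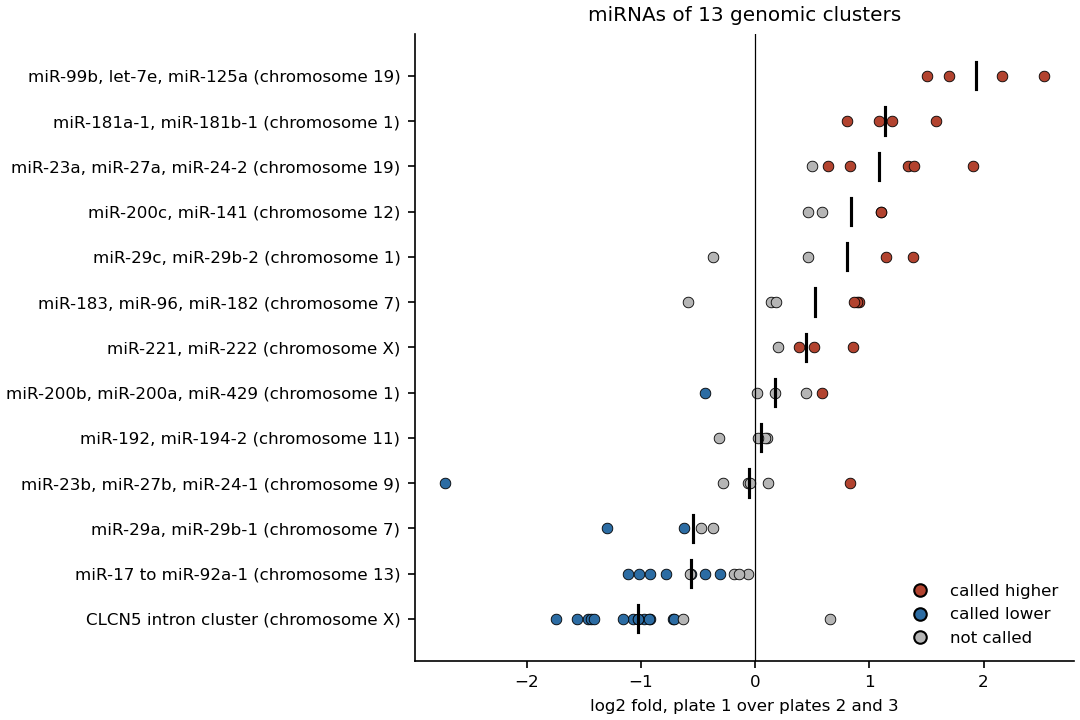
Each point is the log2 fold of plate 1 over plates 2 and 3 of 1 tested miRNA, grouped by genomic cluster (rows) and coloured by call, with the median of a cluster as a black bar. The 4 products of the miR-99b, let-7e and miR-125a cluster lie furthest to the right, with a median of 1.93, and those of the CLCN5 intron and miR-17-92 clusters lie to the left of 0, except miR-500b-3p at 0.65.

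The cluster with the highest median was that of miR-99b, let-7e and miR-125a (chr19:51692618-51693291, plus strand), which lies in an intron of SPACA6. All 4 of its tested products were called higher, against 18% of all tested, with a median log2 fold of 1.93. miR-125a-5p, a relative of the worm lin-4 miRNA, had 556 and 442 CPM in plate 1, against 149, 52.8, 103 and 36.5 CPM in plates 2 and 3 (log2 fold 2.53 ± 0.37, adjusted p = 0.000127). miR-99b-5p, whose family targets MTOR, had 303 and 242 CPM in plate 1, against 93.0, 36.5, 72.8 and 36.5 CPM in plates 2 and 3 (log2 fold 2.16 ± 0.31). let-7e-5p had 99.6 and 89.3 CPM in plate 1, against 41.2, 24.9, 41.7 and 23.1 CPM in plates 2 and 3 (log2 fold 1.51 ± 0.26). In all 3, both plate 3 libraries lie below both plate 2 libraries: for miR-125a-5p the log2 fold of plate 1 was 1.98 over plate 2 and 3.53 over plate 3.

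The relatives of these miRNAs at other loci moved less. miR-125b-5p, with the same seed as miR-125a-5p, had 1069 and 1099 CPM in plate 1, against 820, 789, 993 and 793 CPM in plates 2 and 3, and was not called (log2 fold 0.35, adjusted p = 0.122). The ratio of miR-125a-5p to miR-125b-5p was 5.24-fold higher in plate 1. miR-99a-5p had a log2 fold of 0.52 (adjusted p = 0.0131), a call lost when scaled by total counts (0.32, adjusted p = 0.108) and without HF6 plate 1 (adjusted p = 0.109), HF6 plate 2 (0.0728) or HF7 plate 1 (0.213). miR-100-5p stood at 3.72 and 3.35 CPM in plate 1, against 2.25, 2.33, 3.43 and 1.74 CPM in plates 2 and 3, and was not called. Of 11 listed products of the miR-99, miR-100 and miR-125 loci, 8 were tested and 4 called higher, 3 of them from the chromosome 19 cluster; without HF6 plate 1 the count was 2. In the let-7 family, whose members restrain growth, 9 of 9 were tested and 3 called higher, against 18% of all tested. The median log2 fold of the 9 was 0.30. The largest was let-7e-5p. A single member was called when scaled by total counts, without HF6 plate 1, without HF7 plate 1 or without HF6 plate 2, and 5 were called without HF7 plate 3.

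The miR-200 family, which represses the ZEB transcription factors, had log2 folds that varied by locus in its 3p products and were similar in its 5p products. From the pair miR-200c and miR-141 on chromosome 12 (6963703-6964176), both 3p products were called higher in plate 1. miR-200c-3p had 45371 and 37352 CPM in plate 1, against 16840, 20108, 17887 and 22435 CPM in plates 2 and 3 (log2 fold 1.10 ± 0.13, adjusted p = 1.96e-05). miR-141-3p had 8761 and 10024 CPM in plate 1, against 4030, 6520, 2513 and 4448 CPM in plates 2 and 3 (log2 fold 1.10 ± 0.24, adjusted p = 0.0025). The call of miR-141-3p just missed the threshold without HF6 plate 1 (1.07, adjusted p = 0.0553) and without HF7 plate 1 (0.99, adjusted p = 0.0534).

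From the chromosome 1 locus, miR-200b-3p had 77681 and 79943 CPM in plate 1, against 73725, 77600, 79817 and 80017 CPM in plates 2 and 3 (log2 fold 0.02 ± 0.09, adjusted p = 0.874). miR-200a-3p, with the seed of miR-141-3p, was lower: 28418 and 31854 CPM in plate 1, against 35890, 41392, 46866 and 39405 CPM in plates 2 and 3 (log2 fold -0.44, adjusted p = 0.01). Without HF6 plate 1 its adjusted p was 0.0572. Its 5p arm went the other way, with a log2 fold of 0.58 and a call of higher. The other 5p products had similar log2 folds at both loci without being called, 0.45 for miR-200b-5p, 0.46 for miR-200c-5p and 0.59 for miR-141-5p, and miR-429 stood at 0.18. The ratio of miR-200c-3p to miR-200b-3p was 2.12-fold, and that of miR-141-3p to miR-200a-3p 3.06-fold, higher in plate 1. Of all tested miRNAs, 18% were called higher and 15.9% lower. Of the 9 family products tested, 3 were higher and 1 lower, with a median of 0.46; without HF6 plate 1 there were 1 and 0, and without HF7 plate 1 there was 1 higher.

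The miR-29 family, which represses collagen genes, also divided by locus. miR-29a-3p, from chromosome 7, had 20177 and 22503 CPM in plate 1, against 29845, 32941, 38482 and 29868 CPM in plates 2 and 3 (log2 fold -0.62 ± 0.13, adjusted p = 0.00141). miR-29c-3p, from chromosome 1, had 338 and 309 CPM in plate 1, against 92.8, 160, 97.7 and 149 CPM in plates 2 and 3 (log2 fold 1.38 ± 0.23, adjusted p = 0.000375). The groups do not overlap in either, and the directions are opposite although the sequences differ by at most 1 mismatch. Their 5p arms went the same way as the 3p arms, miR-29a-5p at -1.30 and miR-29c-5p at 1.14. The ratio of miR-29c-3p to miR-29a-3p was 4.08-fold higher in plate 1, yet miR-29a-3p remained the far more abundant in every library. The summed level of the family was 21393 to 23769 CPM in plate 1 and 30946 to 39884 CPM in plates 2 and 3. Beside the 18% of all tested called higher and the 15.9% called lower, the family divided as follows. Of its 7 products 2 were higher and 2 lower, with a median of -0.36; without HF6 plate 1 and without HF7 plate 1 there was 1 higher.

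Among the miRNAs that mark intestinal epithelium, miR-192-5p had 49297 and 48537 CPM in plate 1, against 43232, 47410, 42111 and 51452 CPM in plates 2 and 3, and was not called (log2 fold 0.09, -0.11 when scaled by total counts). miR-194-5p had a log2 fold of 0.02, or -0.18 with that scaling. Their relative miR-215-5p, which shares the seed of miR-192-5p and is induced by p53, had 1322 and 1403 CPM in plate 1, against 624, 772, 677 and 999 CPM in plates 2 and 3 (log2 fold 0.83 ± 0.19, adjusted p = 0.00393). It missed the threshold without HF6 plate 1 (adjusted p = 0.0824) and without HF7 plate 1 (0.0642). Of the group's 6 products 2 were called higher, both of miR-215, against 18% of all tested. The median of the 6 was 0.10 and turned to -0.10 when scaled by total counts. Without HF6 plate 1 and without HF7 plate 1 there were 0 calls, and without HF6 plate 2 and without HF7 plate 2 there was 1.

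miR-21-5p, a miRNA raised in most carcinomas, had 186410 and 214639 CPM in plate 1, against 148827, 134618, 139666 and 122145 CPM in plates 2 and 3 (log2 fold 0.56 ± 0.09, adjusted p = 0.00036). It is the only one of the 8 most abundant miRNAs that was called higher, against 2 called lower (miR-200a-3p and miR-29a-3p). miR-7-5p, which represses EGFR, had a log2 fold of 0.12 (-0.08 when scaled by total counts) and let-7f-5p of 0.26, neither of them called.

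A list of miRNAs reported as raised in colorectal tumours has 12 members, miR-21-5p among them, of which 11 are in the table and 10 were tested. Of these, 7 were called higher and 0 lower, against 18% and 15.9% of all tested, with a median log2 fold of 0.74. Both arms of miR-21 are among the 7, and miR-135b-3p (1.01), miR-552-3p (-0.28) and miR-95-3p (-0.48) were not called. The 7 became 3 without HF6 plate 1 and 4 without HF7 plate 1. miR-135b-5p, which represses APC, had 1809 and 2074 CPM in plate 1, against 453, 669, 319 and 378 CPM in plates 2 and 3 (log2 fold 2.10 ± 0.23, adjusted p = 1.28e-05). miR-625-3p, from an intron of FUT8, had 337 and 286 CPM in plate 1, against 80.4, 75.3, 98.5 and 76.3 CPM in plates 2 and 3 (log2 fold 1.91 ± 0.20). Both are clear of the range of plates 2 and 3. miR-224-5p had a log2 fold of 0.65 (adjusted p = 0.00476), and 0.0852 and 0.0875 as adjusted p without HF6 plate 1 and without HF7 plate 1.

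miR-210-3p, the miRNA most widely induced by HIF in hypoxia, had 888 and 537 CPM in plate 1, against 106, 193, 94.8 and 372 CPM in plates 2 and 3 (log2 fold 1.90 ± 0.40, adjusted p = 0.00171). The groups do not overlap, but both plate 3 libraries lie above both plate 2 libraries. The log2 fold of plate 1 was 2.83 over plate 2 and 1.32 over plate 3, and without HF6 plate 1 the call was lost (1.36, adjusted p = 0.118). Of 9 listed hypoxia miRNAs, all were tested and 5 were called higher, against 18% of all tested, with a median of 0.59. Without HF6 plate 1 there were 3, and against plate 2 alone 7. Of the 5, miR-23a-3p, miR-27a-3p and miR-24-3p are the chromosome 19 products given above, so they are no separate observation. Besides miR-210-3p, the remaining one is miR-26a-5p, which also was the 1 called of the 5 tested products of the miR-26 family, with a log2 fold of 0.59 (adjusted p = 0.0126), which was not called without either plate 1 library (adjusted p = 0.172 without HF6, 0.114 without HF7) or without HF6 plate 2 (0.102). miR-103a-3p (-0.04), miR-107 (-0.41) and miR-181c-5p (0.18) were not called. However, miR-107 was called lower when scaled by total counts, and miR-181c-5p higher against plate 2 alone (0.69, adjusted p = 0.0127). The other arm of miR-210, miR-210-5p, was not called either (-0.28 ± 0.74). Its mean was 6.27 CPM in plate 1 and 7.47 CPM in plates 2 and 3.

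miR-146a-5p, a target of NF-kappa B that dampens its signalling, was among the largest increases, and its relative miR-146b-5p rose with it. miR-146a-5p had 2996 and 2363 CPM in plate 1, against 533, 440, 444 and 477 CPM in plates 2 and 3 (log2 fold 2.50 ± 0.17, adjusted p = 4e-08). miR-146b-5p, which shares its seed but lies on chromosome 10, had 321 and 276 CPM in plate 1, against 84.4, 125, 104 and 139 CPM in plates 2 and 3 (log2 fold 1.40 ± 0.22). The ratio of miR-146a-5p to miR-146b-5p was 2.11-fold higher in plate 1. miR-155-5p, another NF-kappa B target, went the opposite way, with 23.5 and 34.0 CPM in plate 1, against 86.5, 83.9, 99.1 and 84.8 CPM in plates 2 and 3 (log2 fold -1.64 ± 0.24, adjusted p = 0.000127).

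Since miR-146a, miR-155 and miR-142 also mark leukocytes, the marker list was read as a whole. Of 6 leukocyte markers 5 were tested, 2 called higher and 2 lower, against 18% and 15.9% of all tested. miR-142-3p had a log2 fold of -0.61 and miR-142-5p, from the other arm of the same hairpin, of 0.60. Leaving out HF6 plate 1 or HF7 plate 1 left 1 higher and 1 lower, and leaving out HF6 plate 2, HF7 plate 2 or HF7 plate 3 left 1 higher and 2 lower. The summed level was 5447 to 5970 CPM in plate 1 and 2905 to 4409 CPM in plates 2 and 3. The largest difference in it is that of miR-146a-5p, with a mean of 2680 CPM in plate 1 and 474 CPM in plates 2 and 3. Among the other tested markers, miR-142-5p had the higher mean in plate 1 (1631 against 1078 CPM). miR-142-3p (1367 against 2084 CPM), miR-155-5p and miR-150-5p had lower means there, so the sum does not show a shared rise. The defining myeloid marker miR-223-3p had 0 counts in both plate 1 libraries and 6 counts in 1 library of plates 2 and 3.

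miR-375-3p, a marker of secretory and endocrine epithelium, had 4149 and 3815 CPM in plate 1, against 433, 776, 490 and 1299 CPM in plates 2 and 3 (log2 fold 2.41 ± 0.31, adjusted p = 4.24e-05). As for miR-210-3p, plate 3 lay above plate 2, with a log2 fold of plate 1 of 3.11 over plate 2 and 1.94 over plate 3. miR-338-3p, from an intron of AATK, had 130 and 119 CPM in plate 1, against 34.7, 64.5, 32.6 and 52.2 CPM in plates 2 and 3 (log2 fold 1.47 ± 0.26). It too was lower on plate 2 than on plate 3 (log2 folds of plate 1 of 1.89 and 1.11). The 4 libraries of plates 2 and 3 are thus not uniform for these miRNAs, though all lie below plate 1.

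**Figure D4:**
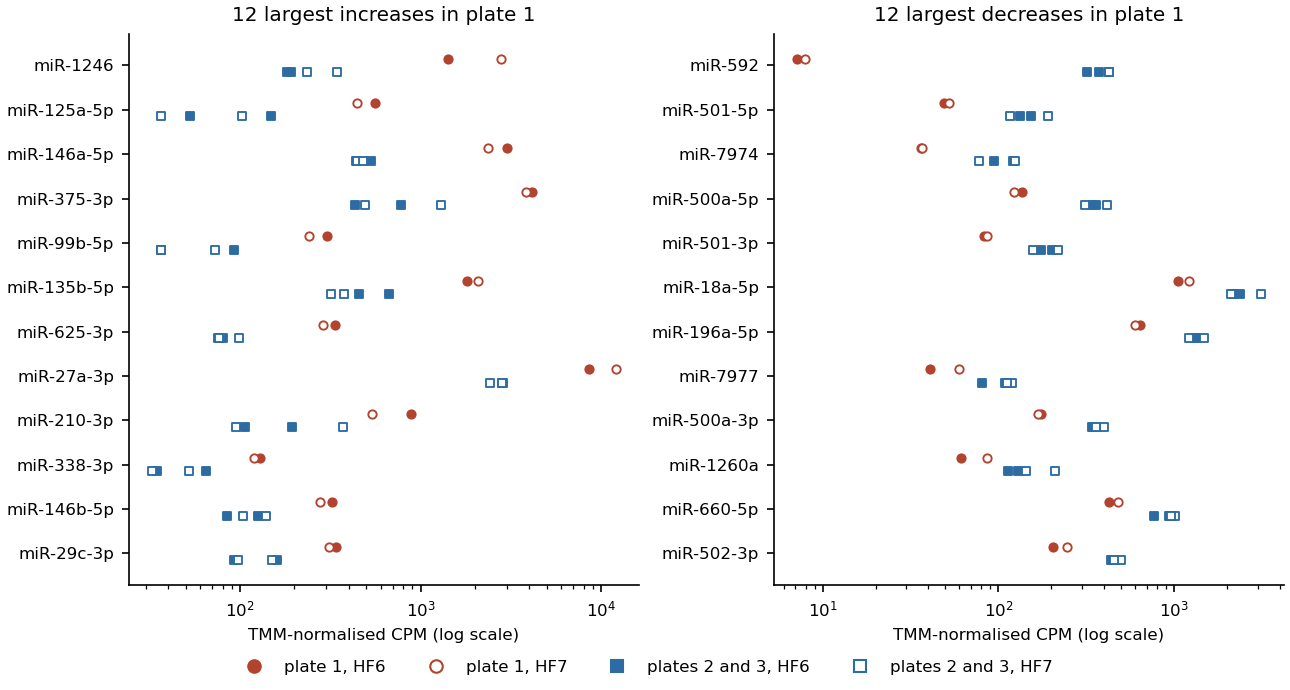
TMM-normalised CPM on a log scale (horizontal axes) of the 12 miRNAs with the largest increases (left) and the 12 with the largest decreases (right) in plate 1, 1 point per library. Red circles are plate 1 and blue squares plates 2 and 3, filled for HF6 and open for HF7; in all 24 rows the red points lie on 1 side of the blue ones, which the choice of these miRNAs required.

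The largest increase of all abundant miRNAs was that of miR-1246, with 1416 and 2775 CPM in plate 1, against 181, 193, 235 and 342 CPM in plates 2 and 3 (log2 fold 3.14 ± 0.27, adjusted p = 6.78e-07). Its entry overlaps the sequence of the U2 small nuclear RNA, so its reads need not be a miRNA. Of 41 listed entries that overlap other RNA classes, 29 are in the table and 22 were tested, with 5 called higher and 4 lower, close to the 18% and 15.9% of all tested, and a median of -0.53. The 4 lower became 0 without HF6 plate 1 and 2 without HF7 plate 2, but 7 without HF6 plate 3 or when scaled by total counts. miR-12136 had 5659 and 5508 CPM in plate 1, against 1731, 2350, 2601 and 2564 CPM in plates 2 and 3 (log2 fold 1.27 ± 0.16). miR-1260a had 60.9 and 86.4 CPM in plate 1, against 129, 114, 143 and 209 CPM in plates 2 and 3 (log2 fold -1.03 ± 0.27). Its adjusted p without HF6 plate 1 was 0.114, and that of miR-7977, another of the 12 largest decreases (-1.09), was 0.0712. miR-7974, from an intron of ZNF653, fell by 1.52 on the log2 scale, and miR-196a-5p, from the HOX clusters, fell by 1.10.

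In 3 smaller groups most members that were called rose. All 4 products of miR-181a-1 and miR-181b-1 on chromosome 1 were called higher, although miR-181a-5p and miR-181b-5p are also made on chromosome 9. miR-181a-5p, which tunes lymphocyte receptor signalling, had 5591 and 5240 CPM in plate 1, against 2226, 2885, 2118 and 2240 CPM in plates 2 and 3 (log2 fold 1.19 ± 0.15). Of the 8 family products tested 4 were higher, against 18% of all tested, with a median of 0.69. Of 6 products of the miR-182, miR-183 and miR-96 cluster on chromosome 7, which is known from sensory cells and is raised in several tumours, 3 were called higher, with a median of 0.53. miR-182-5p had 7786 and 7275 CPM in plate 1, against 3745, 3833, 3948 and 4537 CPM in plates 2 and 3 (log2 fold 0.91 ± 0.13), and miR-183-5p and miR-96-5p had log2 folds of 0.87 and 0.90. The call of miR-96-5p was lost without HF7 plate 1 (0.72, adjusted p = 0.0937). Among miRNAs made without Drosha, miR-320b, miR-320c and miR-320d were called higher (0.80, 1.01 and 1.78) while miR-484 was called lower (-0.86), as 3 and 1 of the 6 tested of 9 listed. The miR-320 entries differ from one another by few bases, and miR-320a-3p was not called (0.20). miR-320b was not called without either plate 1 library (adjusted p = 0.0852 without HF6, 0.0812 without HF7).

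In the miR-30 family 2 of 9 tested were higher (median 0.30), and 1 was so without any 1 of HF6 plate 1, HF7 plate 1, HF6 plate 2 or HF6 plate 3. The share called higher in this family is near the 18% of all tested. Its largest change was that of miR-30e-3p. That miRNA had 688 and 535 CPM in plate 1, against 268, 237, 253 and 315 CPM in plates 2 and 3. miR-221-3p and miR-222-3p, which repress the cell cycle inhibitor p27, were called higher at 0.51 and 0.38, as 3 of the 4 products of their cluster, against 18% of all tested; when scaled by total counts, or without HF6 plate 1, 0 of the 4 were called, and without HF7 plate 1 there was 1. In the miR-15/16 family, which restrains the cell cycle, 0 of the 5 tested were called by edgeR, 1 had an unadjusted p under 0.05 and 1 was called by limma-voom. In the miR-148 and miR-152 family, miR-152-3p was called higher (1.62) and the abundant miR-148a-3p was not (0.25), though it lay 0.71 above plate 2 alone (adjusted p = 0.00487) and -0.10 from plate 3 alone. The 2 called higher of 5 in that family became 1 without either plate 1 library. In the miR-130 and miR-301 family 1 of 5 tested was higher and 2 were lower, against 18% and 15.9% of all tested. There miR-301a-3p was called lower (-1.55) and miR-301b-3p, with the same seed, higher (1.16). Without HF7 plate 1, 0 of the 5 tested were called higher. miR-34a-5p, a p53 target and the 1 tested member of its family, had a log2 fold of 0.76 (adjusted p = 0.0378), with adjusted p of 0.376, 0.16, 0.114 and 0.059 without HF6 plate 1, HF6 plate 2, HF7 plate 1 and HF7 plate 2.

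Of the markers of other cell types, several were higher in plate 1. Of 7 neural markers 6 were tested and 5 called higher, against 18% of all tested, with a summed level of 758 to 834 CPM in plate 1 and 506 to 590 CPM in plates 2 and 3. The 5 are miR-9-5p (1.42), miR-9-3p (1.54), miR-132-3p (1.14), miR-338-5p (0.90) and miR-338-3p, given above. They hold both arms of miR-9 and both arms of miR-338, so the 5 are not separate observations. The log2 fold of miR-338-5p was 0.65 without HF6 plate 1. It was not called when edgeR tested a fold of at least 1.5 (adjusted p = 0.128). The neuron-defining miR-124-3p had 1 count in HF6 plate 1, 1 in HF6 plate 3 and 0 in the others. Among endothelial markers, miR-126-3p was called higher (0.99). miR-139-5p was called higher as well, on 22 and 9 counts in plate 1, against 3, 0, 2 and 3 counts in plates 2 and 3. Of 3 endothelial markers 2 were called higher, with sums of 131 to 146 CPM in plate 1 and 52.0 to 98.2 CPM in plates 2 and 3; without HF6 plate 1 there were 0 and without HF7 plate 1 there was 1. Of 8 stromal markers 4 are in the table and 1 was tested, miR-199b-5p, called higher (1.72; 0.45 without HF6 plate 1, adjusted p = 0.728). The stromal sum was 6.71 to 12.3 CPM in plate 1 and 1.55 to 4.05 CPM in plates 2 and 3, with 0 to 4 counts of miR-143-3p and 0 or 1 of miR-214-3p in every library. Of 6 muscle markers 3 were tested and 1 called higher, miR-1-3p (1.01), with sums of 79.2 to 83.0 CPM in plate 1 and 35.4 to 109 CPM in plates 2 and 3; 0 were called without HF6 plate 1, HF7 plate 1, HF6 plate 2 or HF7 plate 2, and miR-133b had no count in any of the 6. The erythroid markers had 0 calls by edgeR among 2 tested, with 1 at an unadjusted p under 0.05, and sums of 6.71 to 9.44 CPM in plate 1 and 9.42 to 15.8 CPM in plates 2 and 3, and the liver marker miR-122-5p had 2 counts in each plate 1 library and 0 in the others. What part these markers have in the differences was not tested. The labels give 1 line, DiFi, for every sample and name no other cell type, so these values are levels of single miRNAs and not measures of cell numbers.

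Of 166 hairpins with both arms tested, 114 had log2 folds of the same sign in both arms. Both arms were called in 28, and in 24 of these in the same direction. The 4 exceptions were miR-142 and miR-200a, described above, miR-193a (5p -1.12, 3p 0.94) and miR-301b (5p -1.49, 3p 1.16). In miR-142 and miR-200a the 5p arm was the higher and in the other pair of hairpins the 3p arm. The call of miR-142-5p was lost in edgeR when scaled by total counts (0.40, adjusted p = 0.174). miR-193a-3p and miR-301b-5p were at low levels, with means of 11.7 and 7.18 CPM over the 6 libraries. The GC content of the mature sequence had a median of 45.5% among miRNAs called higher, 47.8% among those called lower and 47.6% among all tested. Its upper quartile was 50% among those called higher and 61.1% among those called lower, and across the 534 miRNAs GC content correlated with the log2 fold at -0.166. The part of GC content in the differences was not tested.

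Among miRNAs of low level, some had few counts in 1 of the groups. miR-935 had 49 and 22 counts in plate 1, against 2, 1, 4 and 4 in plates 2 and 3. miR-3065-5p, from the hairpin antisense to miR-338, had 167 and 100 counts in plate 1, against 37, 3, 38 and 14 in plates 2 and 3. In the opposite direction, miR-3158-3p had 0 and 1 counts in plate 1, against 48, 17, 20 and 32 in plates 2 and 3. miR-3196 had 1 and 0 counts in plate 1, against 20, 4, 17 and 43 in plates 2 and 3. The plate 1 counts of the last pair are at or under 3, so no fold is given. These 4 miRNAs were chosen after their values were seen, from the 25 called with a change of at least 4-fold.

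The other libraries of the series give levels beside these, scaled together over all 14 libraries. miR-592 had 7.05 and 7.98 CPM in plate 1, against 322, 389, 425 and 453 CPM in plates 2 and 3. It had 11.1 and 14.6 CPM in the cell pellets, 160 to 232 CPM in the 4 HDM libraries and 204 and 218 CPM in the media libraries. The low level of plate 1 is thus shared by the pellets and by none of the other 10 libraries. miR-146a-5p had 2955 and 2367 CPM in plate 1, against 441 to 537 CPM in plates 2 and 3. It had 6962 and 4472 CPM in the pellets and 96.0 to 372 CPM in HDM. miR-500a-5p had 134 and 123 CPM in plate 1, against 330 to 412 CPM in plates 2 and 3, and 211 and 178 CPM in the pellets, below the 389 to 499 CPM of HDM. miR-125a-5p reached 565 and 288 CPM in the pellets, and 50.6 to 78.3 CPM in HDM, next to 548 and 443 CPM in plate 1 and 38.6 to 150 CPM in plates 2 and 3.

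Pellets and HDM share no library with the plates, so their order could be set beside the calls. Of the 96 miRNAs called higher in plate 1, 59 (61.5%) were also higher in both pellets than in all 4 HDM libraries, against 116 of all 534 tested (21.7%). Of the 85 called lower, 46 (54.1%) were lower in both pellets than in all 4 HDM libraries, against 129 of 534 (24.2%). Over the 177 miRNAs of at least 100 CPM, the log2 fold of plate 1 correlated at 0.699 with the log2 difference of pellets from HDM, across miRNAs, and over all 534 at 0.539. Of the miRNAs called higher in plate 1, 9 were lower in both pellets than in all HDM libraries, and of those called lower, 4 were higher. The HF7 pellet held only 313398 counts and an HDM library 205747, which widens the error of the low miRNAs in this comparison. Whether the plates differ in the amount of medium RNA they carry was not tested.

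**Figure D5:**
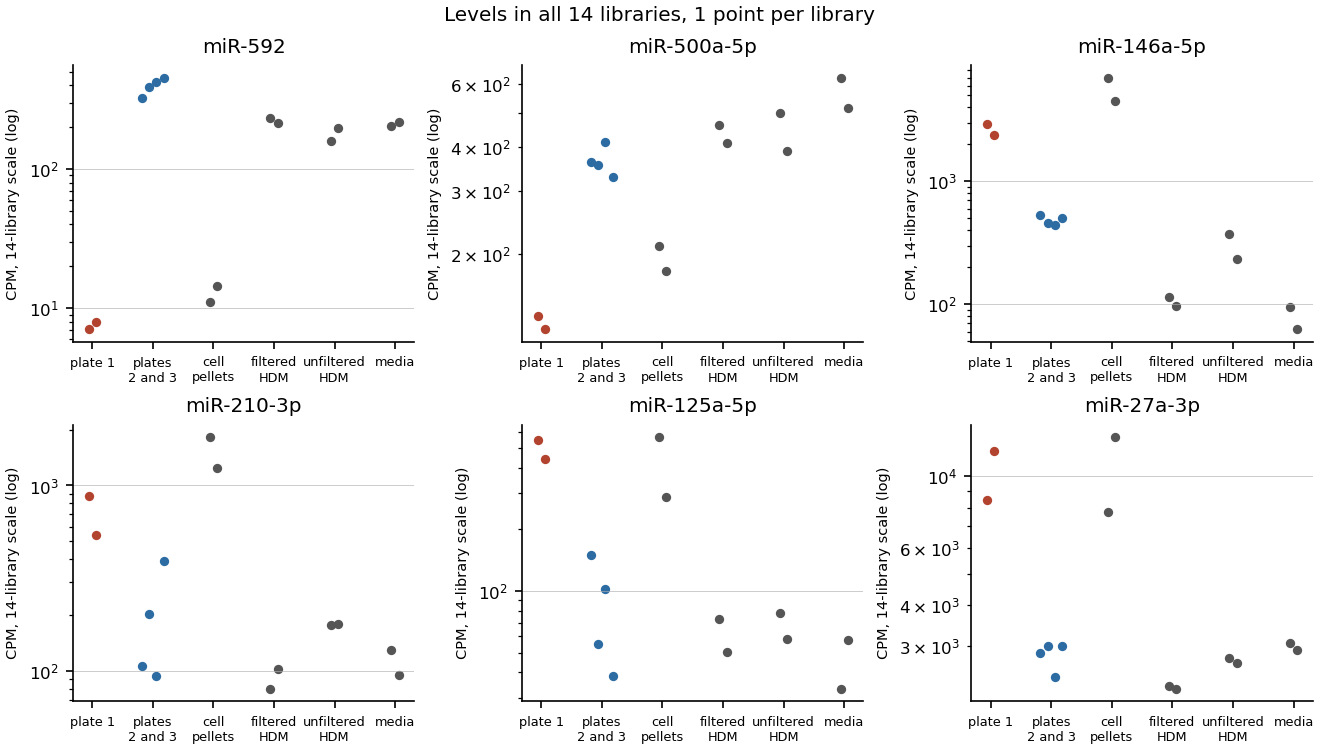
CPM scaled over all 14 libraries, on log axes, for 6 miRNAs with 1 point per library and 1 panel per miRNA, with plate 1 at the left of each panel. For miR-592, miR-146a-5p, miR-125a-5p and miR-27a-3p the cell pellets lie on the side of plate 1, away from plates 2 and 3, HDM and media. For miR-500a-5p the pellets lie between plate 1 and plates 2 and 3. The remaining panel shows miR-210-3p.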

How the data were processed

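The values are expected counts per mature miRNA, deposited by the authors without normalization in 1 table of 1619 entries. Per the submitters' processing notes, cutadapt 2.10, Bowtie 1.3.1, FastQC and the build GRCh38 were used; the rule that gave some counts fractions, and the miRNA annotation release, are not given in the sources used here. Counts were rounded. The 6 plate libraries were fitted with 1 coefficient per group in edgeR 4.0.16 (R 4.3.3, quasi-likelihood, TMM, filterByExpr by group). This left 4 residual degrees of freedom. The fit adds 11.2 prior degrees of freedom by sharing spread across miRNAs, so the p-values rest largely on that sharing. The common BCV was 0.198. Each SE is the size of the log2 fold divided by the square root of its quasi-likelihood F statistic, and so is derived from the test. Calls are at a p under 0.05 after Benjamini-Hochberg adjustment across the 534 tested. Library pairs differed by a chi-square of 34.9 to 543 per degree of freedom, so none is a copy of another. Counts include PCR copies, so floors of 3 counts and the precision given by depth cover counting error only.

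The members and the lists were chosen with earlier results of these data known. The miRNAs named are the 12 largest increases and 12 largest decreases of called miRNAs that averaged 100 CPM or more in either group without overlap, the 8 most abundant, 7 fixed names (miR-210-3p, miR-146a-5p, miR-1246, miR-141-3p, miR-100-5p, miR-338-3p and miR-155-5p), and the 3 most abundant tested members of each list; other names were chosen as list members, relatives or neighbours of these. Clusters join tested miRNAs on 1 strand at most 10000 bases apart. Positions and host genes are from the table and GENCODE. Of 93 named sequences, 88 are identical to RefSeq mature sequences and 5 have no RefSeq entry. Items on human chromosome 8 were left out of the printed sequences.

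HF6 and HF7 were read as names and not as pairs, since the deviations of HF6 from HF7 correlated, across miRNAs, at 0.116 between plates 1 and 2, -0.0491 between plates 1 and 3 and 0.247 between plates 2 and 3. On simulated counts, the fit recovered 62 of 94 miRNAs changed 2-fold (66.0%) and 91 of 96 changed 4-fold (94.8%), and called 6 of 317 unchanged ones. Those counts were drawn with the spread that this fit had estimated, and with increases and decreases planted in equal number. The simulation therefore cannot show how the fit fares where the changes are unbalanced or the spread is misjudged. Alternatives were DESeq2 1.42.0, limma-voom (limma 3.58.1), other scalings and filters, other sets of libraries, a replicate block and leaving out each library. The medium without cells has no column and was not analysed here.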

Additional observations from a re-analysis of the deposited data

Results flagged for a closer look

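In 5 of the 96 named miRNAs, 1 library of the 4 of plates 2 and 3 stood far from the other 3; chance gives about 1 such group in 20. These were miR-27a-3p in HF7 plate 2 (2421 CPM, the lowest), miR-181a-5p in HF6 plate 3 (2885 CPM, the highest), miR-125b-5p in HF7 plate 2 (993 CPM, the highest), miR-320b in HF7 plate 3 (188 CPM, the highest) and miR-155-5p in HF7 plate 2 (99.1 CPM, the highest). None of these 5 libraries reaches the plate 1 range in miR-27a-3p, miR-181a-5p, miR-320b or miR-155-5p, and miR-125b-5p was not called.

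For 4 named miRNAs, none of them called, plate 1 lay above both of plates 2 and 3 in 1 HF number and below both in the other. The HF6 and HF7 differences were 0.433 apart on the log2 scale for miR-27b-3p, 0.315 for miR-15b-5p, 1.01 for miR-4485-3p and 0.511 for miR-15a-5p. That rule is no test; in the interaction test by edgeR none of the 4 was called.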

How the results depend on the processing

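The 181 calls became 169 with DESeq2, 187 with limma-voom, 182 with RLE size factors, 183 with total counts only, 182 with no filter, 154 with at least 50 counts in 2 libraries, 181 with fractions kept, 143 with all 12 replicated libraries in the fit, 210 with 1 coefficient per plate number, 198 against plate 2 alone and 170 against plate 3 alone. With HF6 or HF7 as a replicate block there were 174, of which 172 are among the 181. Testing a fold of at least 1.5 left 82. Leaving out 1 library gave between 97 and 189. None of the 181 changed sign under any of these. Of the 24 largest changes, 21 kept their call in every setting run, and miR-210-3p, miR-1260a and miR-7977 lost it without HF6 plate 1; miR-1260a also lost it when a fold of at least 1.5 was tested. The interaction count was 0, and between 0 and 1 with 1 library of plates 2 and 3 left out. The cause of these shifts was not tested.

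The named miRNAs that changed sign were not among the 181. One of them, miR-4485-3p, was called lower without HF7 plate 1 (-0.936, adjusted p = 0.0476), and miR-126-5p had a log2 fold of 0.59 with all libraries. When scaled by total counts, the log2 folds became -0.182 for miR-200b-3p, -0.179 for miR-194-5p, -0.114 for miR-192-5p, -0.0841 for miR-7-5p, -0.00176 for miR-30d-5p, -0.0312 for miR-16-5p, -0.0945 for miR-27b-3p, -0.183 for miR-4485-3p, -0.0223 for miR-128-3p, -0.0169 for miR-181c-5p and -0.074 for miR-499a-5p. With no filter, they were -0.111 for miR-200b-3p, -0.108 for miR-194-5p, -0.0424 for miR-192-5p, -0.0131 for miR-7-5p, -0.0228 for miR-27b-3p, -0.103 for miR-4485-3p and -0.00584 for miR-499a-5p. With at least 50 counts, they were -0.0992 for miR-200b-3p, -0.0967 for miR-194-5p, -0.0289 for miR-192-5p, -0.00105 for miR-7-5p, -0.00851 for miR-27b-3p and -0.0936 for miR-4485-3p. Against plate 3 alone, they were -0.0151 for miR-192-5p, -0.10 for miR-148a-3p, 0.0146 for miR-15b-5p, -0.202 for miR-181c-5p and -0.468 for miR-499a-5p. Against plate 2 alone, they were 0.109 for miR-30e-5p and -0.0809 for miR-4485-3p, while miR-499a-5p (1.03, adjusted p = 0.00227) and miR-181c-5p (0.69, adjusted p = 0.0127) were called higher. For miR-4485-3p, limma-voom gave -0.181 and the replicate block -0.107.

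With 1 library left out, the log2 folds ranged from -0.112 to 0.0325 for miR-200b-3p, -0.124 to 0.0302 for miR-194-5p, -0.0573 to 0.143 for miR-192-5p, -0.0157 to 0.145 for miR-7-5p, -0.26 to 0.0182 for miR-103a-3p, -0.266 to 0.00197 for miR-30e-5p, -0.0354 to 0.227 for miR-16-5p, -0.0645 to 0.119 for miR-27b-3p, -0.00668 to 0.447 for miR-148a-3p, -0.014 to 0.264 for miR-320a-3p, -0.936 to 0.464 for miR-4485-3p, -0.0572 to 0.383 for miR-181c-5p, -0.19 to 0.426 for miR-499a-5p and -0.42 to 1.09 for miR-126-5p. HF6 plate 3 is the shallowest plate library, and 3 of its counts stand for 2.41 CPM, so miRNAs of a few CPM are the least certain.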
